A study of Mus musculus with 2 samples.

Results

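Elastic fibres and their microfibrils were followed through 10 genes: *Eln*, *Fbn1*, *Fbn2*, *Mfap2*, *Mfap4*, *Mfap5*, *Fbln1*, *Fbln2*, *Fbln5* and *Emilin1*. They were taken by symbol, with earlier results of these libraries known. All 10 of them were present among the 22096 symbols of each expression table. RNA sequencing had been done on E13.5 forelimb cells from mouse embryos whose strain background the labels give as mixed. Flow cytometry separated ScxGFP-positive from ScxGFP-negative cells, and each population gave 1 library. For each library 6 forelimbs (3 pairs) had been pooled. ScxGFP is a green fluorescent reporter driven by regulatory sequence of *Scx*, the gene of the tendon transcription factor scleraxis. The negative population is therefore the rest of the sorted limb cells, not 1 cell type.

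Elastic fibres let tissues recoil after stretch. Their core is cross-linked elastin, laid down on a scaffold of microfibrils whose backbone is the fibrillins. Small glycoproteins (the microfibril-associated proteins), fibulins and emilins bind this scaffold, and lysyl oxidases join elastin monomers to one another. Microfibrils also hold latent growth factors of the TGF-beta family. In tendon, thin elastic fibres and fibrillin microfibrils run between collagen fascicles and around cells.

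Levels are FPKM, in which fragments are divided by transcript length and by the mapped total, so that genes of different length can be compared within a library. Ratios are log2((FPKM positive + 1) / (FPKM negative + 1)); with the added 1 FPKM, folds of genes at low levels come out too small. With 1 library per population no difference has a replicate check and no test was made. A gene was described as higher or lower where it passed 2-fold on this scale. The pools also cannot tell fewer cells of a type from less RNA per cell.

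All 10 genes lay higher in the ScxGFP-positive library, and 4 of them passed 2-fold: *Eln*, *Fbn1*, *Fbn2* and *Mfap4*. None was lower. The background was 12096 genes that reached 1 FPKM in one library or both; 4.03% of them were at least 2-fold higher and 9.98% at least 2-fold lower. All 10 members reached 1 FPKM, *Eln* and *Mfap5* only in the positive library (0.638 and 0.151 FPKM in negative cells). A gene kept only through that library cannot have a ratio below 0. Their median log2 ratio was 0.99, against −0.27 for all measured genes, of which 26.2% had a ratio above 0. Summed over the 10 genes, positive cells had 340.0 FPKM and negative cells 121, a 2.80-fold difference.

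**Figure D1:**
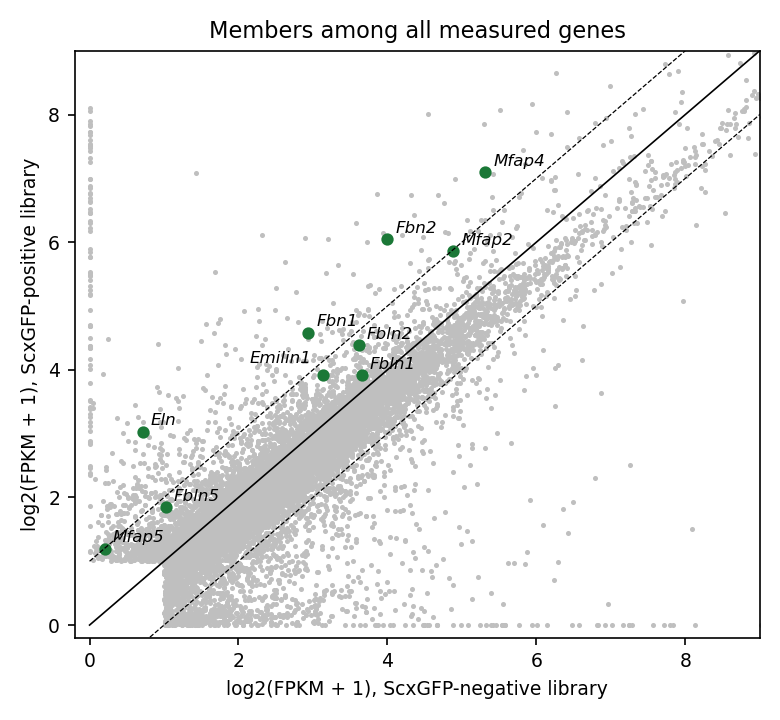
Level of each measured gene (grey) and of the 10 members (green) in the ScxGFP-negative library (x axis) and the ScxGFP-positive library (y axis), both as log2(FPKM + 1). The solid line marks equal levels, the dashed lines 2-fold, and 50 genes above 9 on either axis lie outside the plot; all 10 members lie above the solid line and 4 above the upper dashed line.

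The populations were checked through their markers. *Scx* was at 134 FPKM against 1.69 in negative cells, a difference that the sort on its reporter selects for. With *Scx* counted, 7 of 9 measured tendon genes were higher. So were 8 of 9 genes of loose and muscle connective tissue and 7 of 8 of skeletal muscle, the latter summing to 157 FPKM against 20.9. All 8 macrophage, all 8 erythroid and all 8 epidermal markers and 9 of 10 endothelial markers were lower. Their sums were 10.9 against 403 FPKM for macrophage and leukocyte genes, 156 against 6429 for erythroid genes, 12.2 against 329 for epidermal genes and 3.74 against 61.3 for endothelial genes. None of these 3 sets of 8 genes had a member listed at 0, and of the endothelial set *Cldn5* was listed at 0 in the positive library. Of the remaining lists, 6 of 7 Schwann cell and nerve genes and 3 of 3 perichondrium and osteoblast genes were lower, and 2 of 7 cartilage genes were higher.

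Smooth muscle and pericytes also make elastic fibre proteins, and their markers were read for that reason. Of 7 measured markers 3 were higher and 0 lower in positive cells. Those higher were *Acta2*, *Des* (4.13 against 1.09 FPKM) and *Abcc9* (1.81 against 0.381 FPKM). *Myh11*, *Cnn1*, *Tagln*, *Rgs5* and *Higd1b* did not reach 1 FPKM in either library. The 12 listed genes summed to 50.9 against 21.1 FPKM, with *Higd1b* listed at 0 in the positive library. Without *Acta2* the other 11 genes summed to 31.0 against 18.5 FPKM, 1.67-fold; *Notch3* stood at 5.69 against 5.62 FPKM and *Pdgfrb* at 11.4 against 7.22. *Acta2*, smooth muscle actin, stood at 19.9 against 2.54 FPKM, and *Myh11*, smooth muscle myosin, at 0.0939 against 0.0232. The part of any of these cell types in the ratios of the members was not tested.

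The elastin gene had the largest ratio of the 10 on the FPKM + 1 scale. With a pseudocount of 5 FPKM its ratio was 1.11, below those of *Fbn2* (1.81), *Mfap4* (1.69) and *Fbn1* (1.27). *Eln*, which encodes tropoelastin, the soluble monomer of elastin, stood at 7.17 FPKM in positive cells and at 0.638 FPKM in negative cells. Its log2 ratio was 2.32, and 133 of the measured genes (1.10%) had a higher one. Without the added 1 FPKM its level in positive cells was 11.2 times that in negative cells. The low value rests on 5759 aligned bases, against 61890 in the positive library. *Eln* was below both fibrillin genes of the scaffold: *Fbn2* stood at 9.08 times its level in positive and 23.5 times in negative cells, and *Fbn1* at 3.21 and 10.4 times. *Eln* (NM_007925) lies on mm9 chromosome 5, 135178466 to 135223124.

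The fibrillin genes, which encode the long backbone proteins of microfibrils, were both higher in positive cells. *Fbn2*, the fibrillin gene known for its expression in embryonic tissue, stood at 65.1 FPKM against 15.0, a log2 ratio of 2.05. *Fbn1*, the gene mutated in Marfan syndrome, stood at 23.0 FPKM against 6.63, a ratio of 1.65. These are long transcripts, of 10480 and 9900 bases, and their lower values rest on 375241 and 156807 aligned bases, so the depth behind them is far greater than behind *Eln*. *Fbn2* was the more abundant of the pair in both populations. It stood at 2.83 times the level of *Fbn1* in positive cells and 2.26 times in negative cells, a measure within 1 library that no scaling between libraries can move. *Fbn1* (NM_007993) lies on mm9 chromosome 2, 125126330 to 125332174, and *Fbn2* (NM_010181) on chromosome 18, 58168277 to 58369580.

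*Mfap2* encodes microfibril-associated glycoprotein 1, a small protein that binds fibrillins along the microfibril. Summed over its transcripts it stood at 57.1 FPKM against 28.4 FPKM in negative cells. Its log2 ratio was 0.98, just short of 2-fold with the added 1 FPKM (1.97-fold) and 2.01-fold without it. The total hid a difference between its transcripts. NM_008546 stood at 52.3 FPKM in positive and 13.3 FPKM in negative cells, whereas NM_001161799 stood at 4.75 FPKM in positive and 15.1 FPKM in negative cells. The first lay 3.93 times as high in positive cells and the second 3.18 times as high in negative cells. NM_008546 thus made up 91.7% of *Mfap2* FPKM in positive cells but 46.9% in negative cells.

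In the deposited annotation both *Mfap2* transcripts end at the same base of mm9 chromosome 4, 140571899. They start 213 bases apart, NM_001161799 at 140566339 and NM_008546 at 140566552, and their lengths are 1054 and 1080 bases. The GENCODE annotation of GRCm38 is another annotation and places the starts 226 bases apart. In it both have 9 exons, the first of them non-coding and different (65 and 78 bases), and the same coding exons from exon 2 on, 555 bases in all. The transcripts therefore differ in where transcription starts and not in the protein. The split between them rests on the reads that reach the first exon, a small part of the transcript, and has no replicate check. For comparison, of 1015 genes with several transcripts and at least 5 FPKM in both libraries, the leading transcript differed between libraries in 129 (12.7%). A shift in share at least as large as the 44.8 percentage points of *Mfap2* was seen in 28 of them (2.76%), *Mfap2* included, and the median shift was 7.23.

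The sequence before each start is shown because these starts separate the *Mfap2* transcripts. Each line gives the 100 bases, plus strand, that end before the earliest start that GENCODE or RefSeq annotates there, from RefSeq's promoter windows of GRCm38.p6. The upstream stretch ends 0 bases before the GENCODE start of NM_001161799 and 6 before the RefSeq start. The downstream stretch ends 7 bases before the GENCODE start of NM_008546, since another transcript starts there first, and 44 before the RefSeq start. Capitals mark each CG dinucleotide.
Mfap2 upstream start (NM_001161799), chr4:141010318-141010417: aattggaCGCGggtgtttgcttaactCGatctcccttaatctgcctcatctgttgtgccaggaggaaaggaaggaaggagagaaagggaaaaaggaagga
Mfap2 downstream start (NM_008546), chr4:141010537-141010636: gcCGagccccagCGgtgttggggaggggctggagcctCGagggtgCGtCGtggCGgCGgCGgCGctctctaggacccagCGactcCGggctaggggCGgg
The stretch before the upstream start holds 3 CG dinucleotides and 48% G or C and ends in a run of purines. The stretch before the downstream start, that of the transcript leading in positive cells, holds 12 CG dinucleotides and 77% G or C. Of 32851 promoter windows cut at the same distances, 51.0% hold at least 3 CG and 9.19% at least 12. The E-box CANNTG, the motif bound by scleraxis and other basic helix-loop-helix factors, occurs 1 time before the upstream start and 0 times before the downstream start. It occurs in 35.0% and 35.8% of all windows cut in the same ways. CANNTG reads the same on both strands and was the motif searched here with TATAAA, which is in neither stretch on either strand and in 5.56% and 4.17% of all windows.

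**Figure D2:**
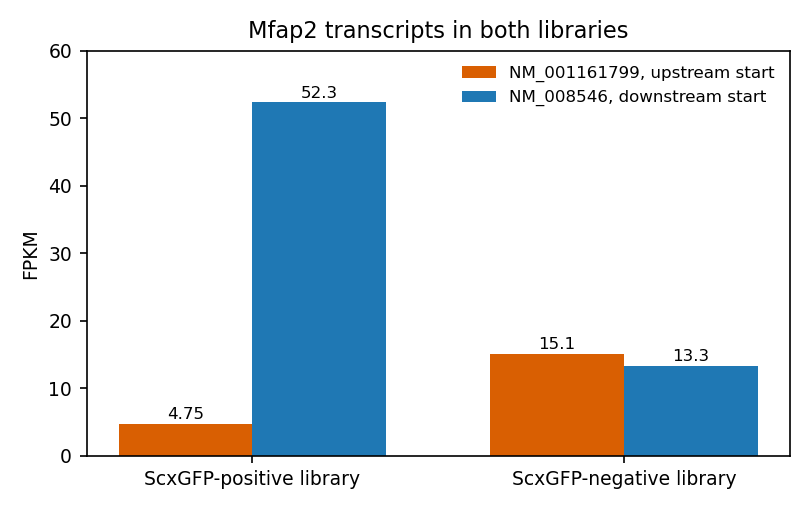
FPKM (y axis, from 0) of the *Mfap2* transcripts NM_001161799 (upstream start, orange) and NM_008546 (downstream start, blue) in the ScxGFP-positive and ScxGFP-negative libraries, 1 library each and thus with no error bars. The downstream transcript leads in positive cells, 52.3 against 4.75 FPKM, and the transcripts are near each other in negative cells, 13.3 and 15.1 FPKM.

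*Mfap5*, the gene of microfibril-associated glycoprotein 2 and the paralog of *Mfap2*, was the least abundant member in both libraries. It stood at 1.29 FPKM in positive and 0.151 FPKM in negative cells, a ratio of 0.99 with the added 1 FPKM, and 8.53-fold without it. The negative value rests on 510 aligned bases, so this fold is poorly bounded. *Mfap2* exceeded *Mfap5* 44.2-fold in positive and 188-fold in negative cells. The *Mfap5* transcript (NM_015776) lies on mm9 chromosome 6, 122463694 to 122479305.

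*Mfap4*, which encodes a fibrinogen-domain glycoprotein that binds elastin, fibrillin and collagen, was the most abundant member in both libraries. It stood at 136 FPKM in positive cells and 38.7 FPKM in negative cells, a log2 ratio of 1.78. Among measured genes its level ranked 157 for positive and 618 for negative cells. It made up 39.9% of the summed FPKM of the 10 genes in positive and 31.9% in negative cells. *Mfap4* (NM_029568) lies on mm9 chromosome 11, 61298946 to 61302206, and its values rest on 468814 and 139916 aligned bases.

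**Figure D3:**
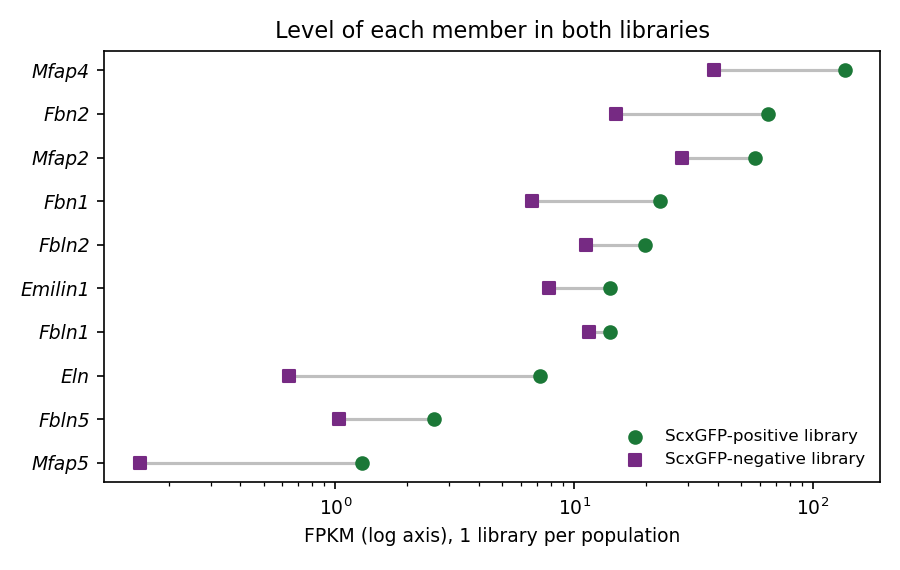
FPKM of each member (x axis, log scale) in the ScxGFP-positive library (green circles) and the ScxGFP-negative library (purple squares), 1 library each, ordered by level in positive cells. The distance between the points is widest for *Eln* (7.17 against 0.638 FPKM) and *Mfap5* (1.29 against 0.151 FPKM) and narrowest for *Fbln1* (14.1 against 11.6 FPKM).

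The fibulin genes, whose products bridge elastin, fibrillins and other matrix proteins, did not pass 2-fold on the FPKM + 1 scale. Without the added 1 FPKM the folds were 2.51 for *Fbln5*, 1.77 for *Fbln2* and 1.22 for *Fbln1*. *Fbln5*, needed for elastic fibre assembly, stood at 2.59 FPKM in positive and 1.03 FPKM in negative cells, a log2 ratio of 0.82. *Fbln2* stood at 19.9 FPKM against 11.2, a ratio of 0.77. *Fbln1*, a fibulin of elastic fibres and basement membranes, stood at 14.1 FPKM against 11.6, a ratio of 0.26 that was the lowest of the 10. These 3 genes sat above the median of all genes by 1.09, 1.04 and 0.53. The fibulin order differed with the library: *Fbln2* stood at 1.41 times the level of *Fbln1* in positive cells and at 0.970 times in negative cells. *Fbln2* was, with *Mfap2*, the other member with 2 transcripts in the files, and NM_001081437, the shorter one, made up 99.5% and 98.2% of its FPKM. The mm9 positions are chromosome 12, 102984775 to 103057265 for *Fbln5*, chromosome 6, 91162758 to 91222534 for *Fbln2*, and chromosome 15, 85036438 to 85116724 for *Fbln1*.

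*Emilin1*, which encodes a glycoprotein at the interface of elastin and microfibrils that also restrains TGF-beta processing, had a ratio close to those of *Fbln2* and *Fbln5*. It stood at 14.1 FPKM in positive cells and 7.82 FPKM in negative cells, a log2 ratio of 0.78. *Emilin1* (NM_133918) lies on mm9 chromosome 5, 31216159 to 31223646. No other listed gene's span overlapped that of any of the 10 members, so the lack of strand in the libraries adds no listed gene to their reads.

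The order of levels changed between the populations. In positive cells it ran *Mfap4*, *Fbn2*, *Mfap2*, *Fbn1*, *Fbln2*, *Emilin1*, *Fbln1*, *Eln*, *Fbln5*, *Mfap5*. In negative cells *Fbln1* moved from place 7 to 4, *Fbn1* from 4 to 7, and *Eln* and *Fbln5*, and likewise *Fbn2* and *Mfap2*, changed places. With 1 library each, no spread is known by which neighbours in these orders could be separated, and *Emilin1* and *Fbln1* were within 0.1 FPKM of each other in positive cells. Expressed against *Fbln1* within the same library, *Fbn1* stood at 1.63 in positive and 0.572 in negative cells, and *Fbn2* at 4.62 and 1.29. *Mfap2* per *Fbn2* went the other way, from 0.877 in positive to 1.90 in negative cells. *Emilin1* stood at 1.97 times the level of *Eln* in positive and 12.3 times in negative cells. The fibrillins and elastin thus took a larger place beside *Fbln1* and *Emilin1* in the positive library.

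Around the 10 members, 9 role lists held 74 genes that act with elastic fibres or microfibrils. Values were read for 73 of them, and 59 were measured. Of these 14 were at least 2-fold higher in positive cells (23.7%), 7 lower (11.9%) and 38 neither, against the 4.03% and 9.98% of all measured genes. Their median log2 ratio was 0.24. The lists were drawn up with earlier results of these libraries known.

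Enzymes that cross-link elastin and collagen were higher in positive cells, 3 of 4 measured lysyl oxidase genes. *Lox* stood at 25.7 FPKM against 2.30 (log2 ratio 3.02), *Loxl2* at 17.2 against 7.61 (1.08), and *Loxl1*, linked to elastic fibre upkeep, at 3.01 against 0.903 (1.07). *Loxl3* was within 2-fold, at 3.08 against 2.87 FPKM. *Lox* thus stood at 3.59 times the level of its substrate gene *Eln* in positive cells and 3.60 times in negative cells.

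Latent TGF-beta binding proteins share the domain plan of fibrillins and tether latent growth factor to microfibrils. *Ltbp4*, whose product also takes part in elastin assembly, stood at 10.5 FPKM in positive and 4.66 FPKM in negative cells, a ratio of 1.02. *Ltbp1* had a ratio of 1.65, *Ltbp3* of 0.69 (10.4 against 6.04 FPKM), and *Ltbp2* lay on the other side at 0.505 against 1.14 FPKM (−0.51). Thus 2 of 4 passed 2-fold on the FPKM + 1 scale and none did so in the other direction. Without the added 1 FPKM *Ltbp2* was 2.26 times as high in negative cells. *Ltbp1* and *Ltbp4* were then 3.42 and 2.25 times as high in positive cells.

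Relatives of the members went both ways. *Efemp1* (fibulin 3) stood at 4.84 FPKM against 0.604 (ratio 1.87) and *Emilin3* at 5.95 against 0.818 (1.93), both higher in positive cells. *Efemp2* (fibulin 4), which brings lysyl oxidase to elastin, stood at 16.8 FPKM against 8.32, a ratio of 0.94. *Mmrn1*, a multimerin gene of platelets and endothelium, was lower, at 0.0365 FPKM against 2.002 (−1.53). Of 8 measured relatives 2 were higher and 1 lower.

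Among ADAMTS and ADAMTS-like genes of microfibrils, 1 of 5 measured was higher, *Adamtsl3* at 2.98 FPKM against 0.430 (ratio 1.48). *Adamts6* had a ratio of 0.67 and *Adamts10*, a fibrillin-binding metalloprotease gene, of 0.54 (9.23 against 6.03 FPKM). Of the convertases and chaperones, *Pcsk5* was higher, at 3.83 FPKM against 0.842 (1.39), and *Pcsk6* lower, at 3.60 against 14.5 (−1.75). *Fkbp10*, a chaperone of collagen and tropoelastin, stood at 18.5 FPKM against 9.84 (0.85).

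Cell receptors for microfibrils and elastin showed no shift of that size upward: 0 of 12 measured were higher and 1 lower. *Itgb8*, an integrin chain that activates latent TGF-beta, stood at 2.02 FPKM in positive and 0.805 in negative cells (0.74). *Itga4*, an integrin chain of leukocytes and other cells, was the lower one, at 3.33 against 19.4 FPKM (−2.24), and *Ctsa*, part of the elastin receptor complex, stood at 9.60 against 16.7 (−0.74). Growth factors split, with 2 of 9 higher (*Tgfb3* at 1.51 and *Mstn*, the myostatin gene, at 1.06) and 1 lower (*Tgfb1* at −2.98). Partners in the matrix had 2 of 5 higher, *Dcn* (decorin) at 3.18 and *Fn1* (fibronectin, on which fibrillin assembles) at 85.3 FPKM against 19.6 (2.07). *Bgn* (biglycan) stood at 0.64 and *Hspg2* (perlecan) at −0.36.

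Enzymes that can cut elastin or fibrillin had the lowest median of the 9 lists, −0.70, with 3 of 7 measured genes lower and 1 higher. Those lower were *Ctss*, a cathepsin gene of macrophages (0.662 against 27.5 FPKM, −4.10), and the neutrophil elastase and proteinase genes *Elane* (0.0379 against 2.34, −1.69) and *Prtn3* (0.410 against 2.29, −1.22). Macrophage and leukocyte markers were lower as listed above, and no list of neutrophil markers was read. The part of blood cells in these ratios was not tested. The 1 higher was *Ctsk*, the cathepsin K gene, at 4.52 FPKM against 1.60 (1.08).

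**Figure D4:**
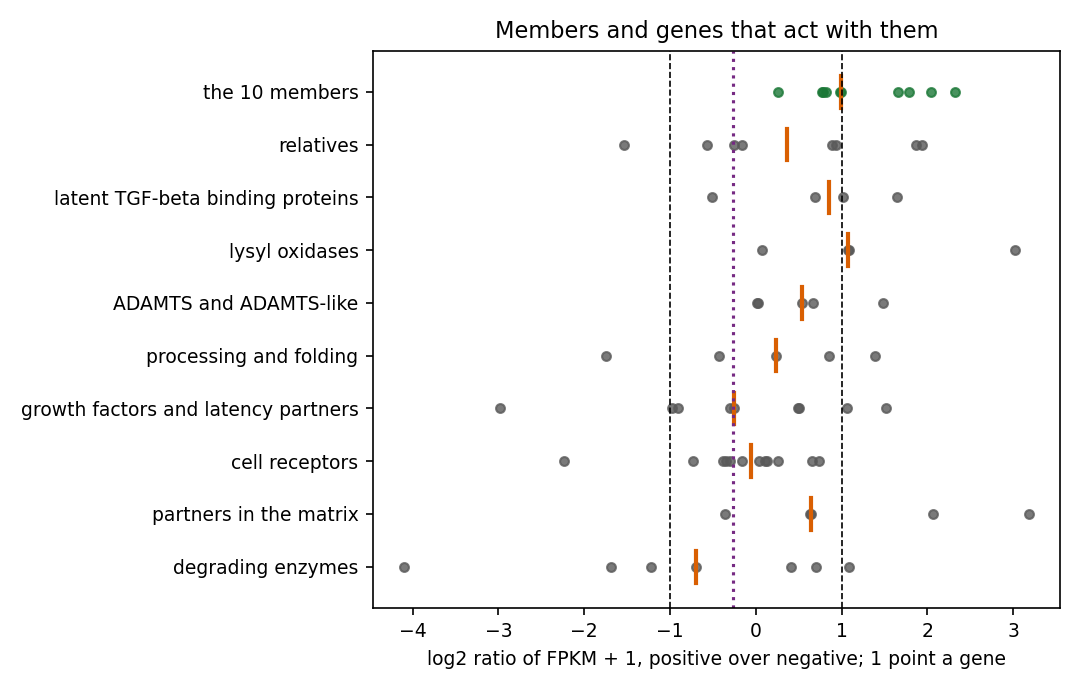
Log2 ratio (x axis, on the FPKM + 1 scale) of the 10 members (green) and of measured genes in each of 9 role lists (grey), 1 point per gene, with the list median as an orange bar, 2-fold as dashed lines and the median of all measured genes (−0.27) as a dotted line. Lysyl oxidases (median 1.08) lie near the members (0.99), and the degrading enzymes have the lowest median (−0.70).

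Which members pass 2-fold depends on the scale. *Eln*, *Fbn1*, *Fbn2* and *Mfap4* passed under each of 13 alternative settings, and *Fbln1* under none of them. *Mfap2* passed under 9 of 13 and *Mfap5* under 7 of 12, both lying close to the limit on the FPKM + 1 scale. *Emilin1*, *Fbln2* and *Fbln5* passed under 5 settings each, out of 13, 12 and 12. Scaling the libraries to an equal median moved the median of all genes by 0.27 and raised the count of members past 2-fold from 4 to 8, where 5.39% of all genes were at least 2-fold higher and 6.78% lower. With each library rescaled to the same total (TPM) 9 members passed, where 9.37% of all genes were higher and 9.62% lower. The 1 added after this rescaling is smaller than 1 FPKM, so this setting changes the pseudocount as well as the scale. A pseudocount of 0.1 FPKM without rescaling gave 7 members. No setting placed a member's ratio below 0 where the member was kept. With the longest transcript only, *Fbln2* fell under the minimum of 1 FPKM and was left out. That transcript, NM_007992, stood at 0.0992 FPKM in positive and 0.202 FPKM in negative cells, a log2 ratio of −0.13.

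**Figure D5:**
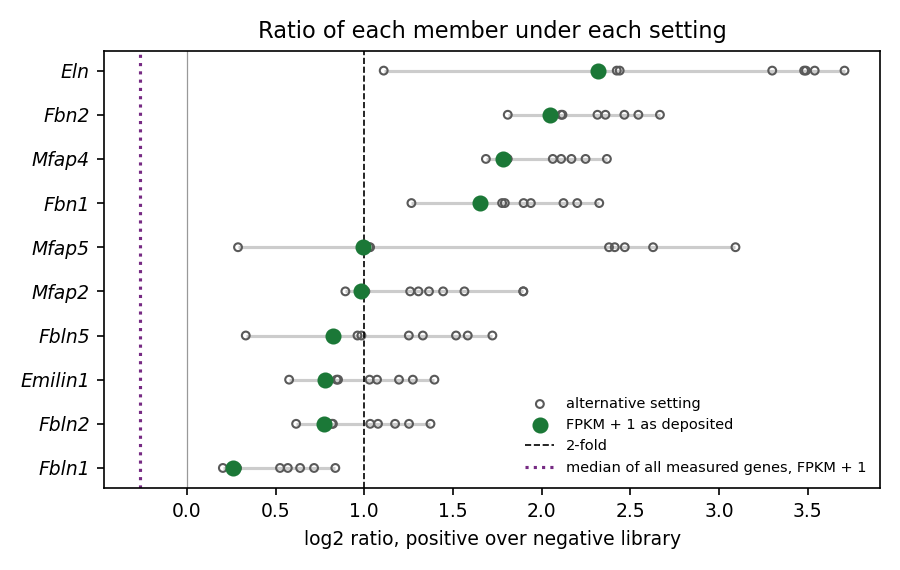
Log2 ratio of each member (x axis, positive over negative library) on the FPKM + 1 scale (filled circles) and under each alternative pseudocount, scaling, filter or transcript choice (open circles), with 2-fold as a dashed line and the median of all measured genes on the FPKM + 1 scale as a dotted line. The 4 genes at the top lie right of the dashed line under each setting, and *Fbln1* lies left of it under each.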

How the data were processed

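Per the submitters' processing notes, reads were handled with Bowtie 0.12.7 and TopHat 1.4.1 on mouse build mm9; a version for the abundance program was not given in the sources used here. The cDNA came, per the labels' protocols, from the NuGEN Ovation RNA-Seq v2 assay, an amplifying chemistry without strand information. Per the file headers, the authors deposited an FPKM, a coverage, a length and a status for each of 28107 RefSeq transcripts per library. The deposited coverage, per the file headers, is a depth of aligned bases, and coverage times length is printed as aligned bases; over transcripts these summed to 0.687 gigabases for positive and 0.875 for negative cells.

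The files list transcripts in different orders and were joined by transcript, symbol, position and length. FPKM was summed per symbol, and a symbol with a failed row in either library was treated as missing; each row of the 10 members had status OK. Positions count from 0 in the files, and 1 was added to starts. The reference annotation is of GRCm38, and no position was converted. FPKM is not a count, so no count test was run. The ratio and counts returned the changes set in simulated FPKM without noise. That checks the arithmetic only, not noise, low levels or scaling between libraries. Calculations used Python 3.11.15 with pandas 2.3.3 and numpy 2.4.6.

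The 10 members, the role and marker lists and the settings were chosen with earlier results of these libraries known. Named were all members, *Scx*, up to 3 measured genes of each role list with the largest ratio in size plus the largest of opposite sign where these shared a sign, and 9 genes whatever their value (*Ltbp1* to *Ltbp4*, *Efemp1*, *Efemp2*, *Lox*, *Loxl1*, *Loxl2*). For marker lists the rule was up to 2 measured genes with the largest ratio in size, of which only *Scx*, *Acta2*, *Des* and *Dcn* are given here. Also named were the 3 genes nearest in level to the members with the highest and lowest ratio. *Loxl3*, *Cldn5*, *Myh11*, *Higd1b*, *Notch3*, *Pdgfrb*, *Abcc9*, *Cnn1*, *Tagln* and *Rgs5* were named after their values were seen. Of listed genes, *Hmcn2* was not analysed here. Protein sequences were not used here. RefSeq's promoter table held windows for 6 members, and *Eln*, *Fbn2*, *Mfap4* and *Mfap5* were without one. Alternatives were pseudocounts of 0.1 and 5, 5 scalings, 2 filters, 2 choices of transcript and the status; a ratio with no pseudocount was added after the values were seen.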

Additional observations from a re-analysis of the deposited data

How the results depend on the processing

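The count of members at least 2-fold higher, 4, was 7 with a pseudocount of 0.1 FPKM, 8 with the median ratio set to 1 and with equal upper quartiles, and 9 when both libraries were rescaled to 1 total (TPM), with or without haemoglobin genes or transcripts under 200 bases. It was 7 with no pseudocount, a setting chosen after seeing the data. The members' median of 0.99 was 1.89 with TPM, 1.82 without haemoglobin genes, 2.02 without short transcripts, and 1.65 with the longest transcript only, where *Fbln2* fell below the minimum. Related genes counted 14 higher and 7 lower, but 4 and 4 with a pseudocount of 5, 8 and 4 with a minimum FPKM of 5, and 26, 24 and 27 higher with the 3 TPM scalings. All genes counted 488 higher and 1207 lower. With pseudocounts of 0.1 and 5 they counted 712 and 222 higher and 1782 and 394 lower. With no pseudocount they counted 665 higher and 1759 lower, over only genes detected in both libraries. The median ratio set to 1 gave 652 and 820, and equal upper quartiles gave 633 and 865. A minimum of 5 gave 323 and 658, and TPM gave 1133, 1032 and 1184 higher. That minimum leaves fewer genes to count, among related genes as well. The ratio of *Eln* ranged from 1.11 to 3.71, that of *Mfap5* from 0.29 to 3.09 and that of *Fbln1* from 0.20 to 0.84; *Mfap2* stood at 1.90 when NM_008546 alone was used. With 1 library per population, no replicate could be left out. No paired analysis was possible because each population has 1 library. Counting error cannot be bounded from FPKM, and it is widest for the *Mfap5* and *Eln* values in negative cells.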

Other observations

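The genes nearest in level to the extreme members were found over 5914 genes with at least 5 FPKM in one library, by distance on the log2(FPKM + 1) scale. Over only 2 libraries this describes a shared level and ratio and nothing more. Nearest to *Eln* (7.17 against 0.638 FPKM) were *Chodl* (6.96 against 0.705), *Tmem8c*, the gene of the muscle fusion protein myomaker (6.71 against 0.737), and *Thbs2*, a thrombospondin gene (8.06 against 0.647). Nearest to *Fbln1* (14.1 against 11.6 FPKM) were *Pja1* (13.8 against 11.4), *Strn3* (14.5 against 11.9) and *Fads1* (14.4 against 11.9).

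RefSeq's promoter windows of 300 bases, from 250 before to 50 after a start, were at hand for 6 members in 9 windows. An E-box, CANNTG, was in 7 of the 9 windows, and 72.3% of all 32851 windows held one. TATAAA was in 0 of the 9 windows and in 13.6% of all. The window of the downstream *Mfap2* start held 22 CG dinucleotides and that of the upstream start 6, against a median of 7 over all windows.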
